A study of Mus musculus with 11 samples.

Results

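Neat1 and Malat1, a pair of long non-coding RNAs that stay in the nucleus, and the paraspeckle protein genes Sfpq, Nono, Pspc1 and Rbm14 were followed across thymocytes, which are T cells in development. These 6 genes were taken by name from a table of 54418 genes, and all 6 were counted in all 11 mice. They were chosen with results of these data known. Neat1 was chosen by its lower level in TKO than in wt mice, so its values against wt are given as a description with no test.

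RNA was sequenced from 4 wt mice, 4 Zmat3-/- mice and 3 Puma-/-p21-/-Zmat3-/- (TKO) mice. The comparisons ask what the loss of ZMAT3, an RNA-binding protein induced by the tumour suppressor TRP53, does to thymocyte transcripts, alone and together with PUMA (gene Bbc3), which drives apoptosis, and p21 (gene Cdkn1a), which halts the cell cycle. TKO mice lack Zmat3 as well, so both mutant groups share that deletion, and both were compared with the same wt mice. All mice were aged 8 to 12 weeks, were on a C57BL/6-WEHI background and carried their deletions in every tissue, and RNA came from a set number of cells of each mashed thymus, with no sort or treatment described for these samples. Libraries were made from total RNA with a TruSeq RNA kit, version 2, which does not mark strand.

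Paraspeckles are nuclear bodies built on NEAT1. The gene gives a short transcript that ends at a polyadenylation signal and a long one that runs on past it, and only the long one forms the scaffold. The relatives SFPQ, NONO and PSPC1 bind along the RNA as dimers, and RBM14 helps to join the units into a body. Paraspeckles hold back some RNAs and proteins in the nucleus, and Neat1 itself is known to be induced by TRP53. MALAT1 is made from the neighbouring gene and gathers in nuclear speckles, bodies rich in splicing factors.

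On the GRCm38 genome, Neat1 (ENSMUSG00000092274.3) lies on the minus strand at chr19:5824708-5845478 and Malat1 (ENSMUSG00000092341.3) on the same strand at chr19:5795690-5802672, both as non-coding exons. Sfpq (ENSMUSG00000028820.13) lies at chr4:127021324-127037013, Nono (ENSMUSG00000031311.17) at chrX:101429318-101448591, Pspc1 (ENSMUSG00000021938.12) at chr14:56720710-56778316 and Rbm14 (ENSMUSG00000006456.10) at chr19:4800569-4811634, each with coding exons and UTRs. The 3′ ends of the RNAs are shown because they decide which molecule a library can hold. The first sequence is the end of the short Neat1 transcript (chr19:5842307-5842366), with its AATAAA signal in capitals. The second is the end of the long transcript (chr19:5824708-5824807) and the third the matching stretch of the longest Malat1 transcript (chr19:5795982-5796081), with both U-rich motifs and the A-rich tract in capitals. The last is the annotated end of that Malat1 transcript (chr19:5795690-5795749), again with AATAAA in capitals. All are read on the minus strand from the GENCODE M21 transcripts.
Neat1 short transcript end: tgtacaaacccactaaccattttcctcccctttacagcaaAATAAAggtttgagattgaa
Neat1 long transcript end: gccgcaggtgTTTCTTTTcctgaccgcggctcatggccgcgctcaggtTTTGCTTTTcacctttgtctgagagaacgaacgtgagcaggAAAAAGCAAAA
Malat1 tract: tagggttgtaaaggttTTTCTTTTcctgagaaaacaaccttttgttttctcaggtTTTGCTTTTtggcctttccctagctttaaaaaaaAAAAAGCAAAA
Malat1 annotated end: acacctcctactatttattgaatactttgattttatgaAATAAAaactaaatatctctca

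Neat1 and Malat1 shared the letters TTTCTTTT, TTTGCTTTT and AAAAAGCAAAA, the last of which are the final bases of the long Neat1 transcript. These elements are known to fold into a triple helix that protects an end cut without a poly(A) tail. The A-rich word was present in the last 100 bases of 64 of 139316 annotated transcripts (0.0459%), TTTCTTTT in 1.165% and TTTGCTTTT in 0.2419%, searched on the transcript strand only. The Malat1 transcript as annotated ran 292 bases beyond its only copy of that word. AATAAA stood in the last 60 bases of 27.15% of 141515 transcripts, so its presence at the end of the short Neat1 and of the Malat1 transcript is common. Of the 20771 bases of the long Neat1 transcript, 17599 (84.7%) lay beyond the end of the short one, which has 3004 bases. Of the 31-base words of the short transcript, 99.0% were also in the long one. The deposited value is 1 count per gene, so the Neat1 values below sum its transcripts and do not say which of them, or how many paraspeckles, a cell held. How far transcripts without a poly(A) tail entered these libraries was not tested, and the paper does not say whether poly(A) RNA was selected. The Neat1 and Malat1 counts therefore cannot be read as all the RNA of these genes.

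The libraries held 17669715 (TKO mouse 2) to 80207003 (TKO mouse 3) counts. Each member had at least 509 counts in every mouse. Levels are CPM, the counts of a gene scaled to its library's total with TMM factors. Summed CPM of 14 thymocyte markers was 12995 to 18059 over all mice, and none of the marker genes of any list was at 3 or fewer counts in every mouse. Zmat3 transcript was 9.88 to 26.8 CPM in wt, 5.34 to 6.85 CPM in Zmat3-/- and 7.78 to 8.25 CPM in TKO mice, lower than wt but not absent (log2FC −1.64, edgeR adjusted p = 0.0786 and log2FC −1.28, edgeR adjusted p = 0.371). Transcripts of the genes of Puma and p21 were also still counted in TKO mice. Bbc3 had 16.8 to 20.1 CPM in wt and 12.9 to 15.2 CPM in TKO mice (log2FC −0.48, SE 0.154, edgeR adjusted p = 0.399). Cdkn1a had 3.53 to 10.4 CPM in wt and 2.49 to 3.52 CPM in TKO mice (log2FC −1.09, SE 0.426, edgeR adjusted p = 0.443). Its wt levels were 8.20 and 10.4 CPM in wt mice 1 and 2 and 3.53 and 4.15 CPM in wt mice 3 and 4. Zmat3 split the other way, at 9.88 and 12.2 CPM and 26.8 and 26.8 CPM. In bulk RNA, fewer cells of a type and less RNA per cell cannot be told apart. Nothing in the labels ties mice to litters or dates.

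The wt mice stood apart in pairs. Over 12957 genes the correlation of log2 CPM was 0.983 between wt mice 1 and 2 and 0.984 between wt mice 3 and 4, but 0.889 to 0.922 across these pairs, against 0.986 to 0.992 among Zmat3-/- and 0.972 to 0.985 among TKO mice. Xist, the RNA of the inactive X chromosome, was counted at 505 CPM or more in wt 1 and 2, Zmat3-/- 1 and 2 and TKO 1, and at 2.54 CPM or less in the other 6 mice. The wt pairs also differed in summed markers. B cell genes had 731 and 849 CPM in wt 1 and 2 and 491 and 484 CPM in wt 3 and 4, and immediate-early genes had 1342 and 1293 CPM against 852 and 827 CPM. Stroma genes had 324 and 310 CPM in wt 1 and 2 and 201.6 and 231 CPM in wt 3 and 4, and myeloid genes 411 and 433 CPM against 242 and 217 CPM. Erythroid genes had 1079 and 880 CPM against 8561 and 2172 CPM. The part of these in the members' wt split was not tested. The Xist level and other differences between the wt pairs cannot be told apart, and the log2FC of each member against wt is given below with and without each pair.

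Neat1 had 214 and 252 CPM in wt mice 1 and 2 and 508 and 511 CPM in wt mice 3 and 4. The 4 Zmat3-/- mice had 116, 136, 128 and 139 CPM. The 3 TKO mice had 141, 88.6 and 119 CPM. Every mutant mouse was below every wt mouse, and the wt mice were split into a lower and a higher pair with nothing between. The wt mean was 371 ± 160 CPM (SD, n = 4). That of Zmat3-/- mice was 130 ± 10.4 CPM (SD, n = 4), and that of TKO mice 116 ± 26.2 CPM (SD, n = 3). The spread among the wt mice was thus wider than that of either mutant group.

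**Figure D1:**
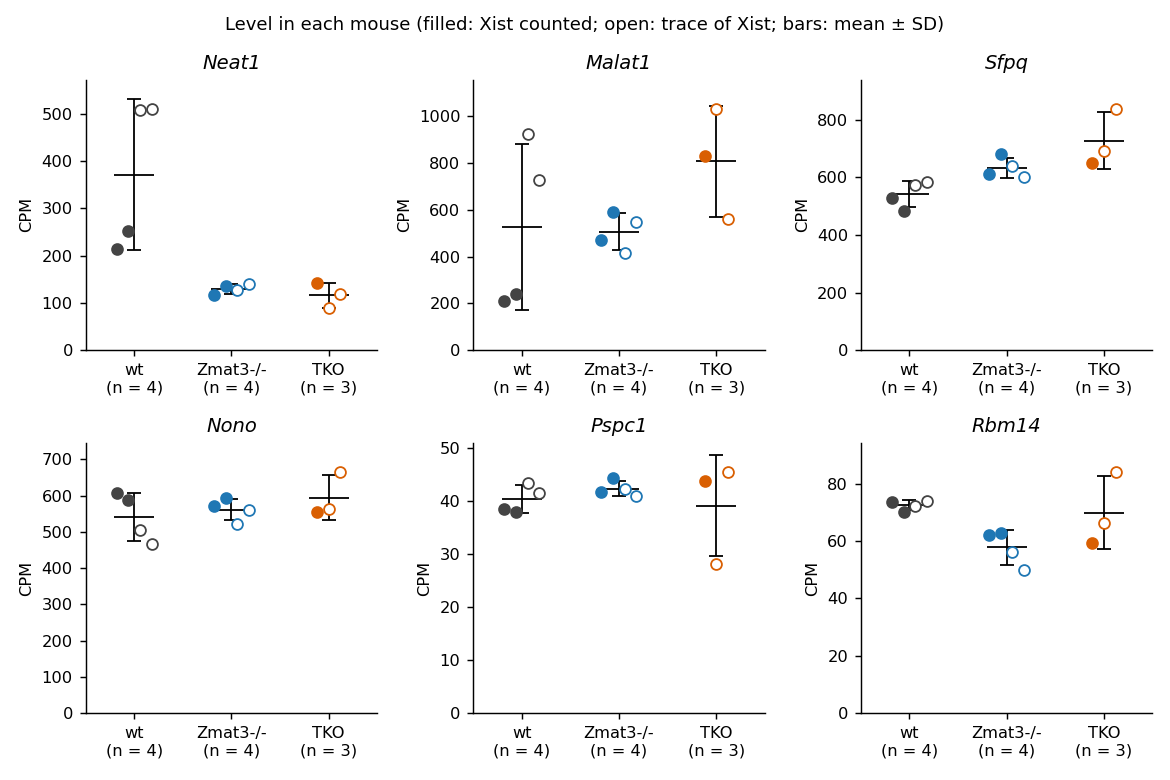
CPM (vertical axes, from 0) of the 6 genes in each mouse, by genotype, with mean and SD. Filled points are mice in which Xist was counted and open points mice with a trace of it. All 7 mutant mice lie below the 4 wt mice for Neat1, and all 7 lie above them for Sfpq.

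Neat1's log2FC was −1.73 in TKO against wt (SE 0.380, 95% interval −2.61 to −0.85) and −1.52 in Zmat3-/- against wt (SE 0.305, 95% interval −2.22 to −0.83). These values stood 61st from the lowest of 13260 tested genes and 74th from the lowest of 13494. Every mutant mouse was below every wt mouse for 5.16% of tested genes in the comparison of TKO with wt and for 6.75% in that of Zmat3-/- with wt. Both figures are descriptions because the gene was chosen for this difference.

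Neat1 was lower than wt against either wt pair, but the size depended on the pair. Against wt 3 and 4 alone its log2FC was −2.19 in TKO (SE 0.169) and −1.995 in Zmat3-/- mice (SE 0.0693). Against wt 1 and 2 alone it was −1.02 (SE 0.178) and −0.83 (SE 0.0911). Among mice with a trace of Xist, wt had 3.82 times the mean Neat1 CPM of Zmat3-/- mice (n = 2 each), and among mice with Xist counted 1.85 times (n = 2 each). Within wt the higher pair had 2.18 times the level of the lower. The wt pairs differed by at least as much as for Neat1 in 17.2% of 12957 genes.

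The Neat1 levels of TKO and Zmat3-/- mice overlapped. The log2FC of TKO against Zmat3-/- was −0.20 (SE 0.133, 95% interval −0.50 to 0.092, edgeR adjusted p = 0.983). It was −0.41 without TKO mouse 1 and −0.07 without TKO mouse 2, the lowest and highest values with 1 mouse left out. The difference did not pass the test, which asks what loss of Puma and p21 adds to loss of Zmat3. The TKO values that led to the choice of Neat1 also enter this comparison, so its p is no independent test.

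Malat1 had 210 and 242 CPM in wt mice 1 and 2 and 923 and 730 CPM in wt mice 3 and 4. The Zmat3-/- mice had 470, 593, 414 and 546 CPM, and the TKO mice had 830, 1033 and 560 CPM. All 4 Zmat3-/- mice lay between the wt pairs, and the TKO range overlapped both groups. The wt mean was 526 ± 356 CPM (SD, n = 4). Zmat3-/- mice averaged 506 ± 79.4 CPM (SD, n = 4) and TKO mice 808 ± 237 CPM (SD, n = 3). Malat1's log2FC against wt was 0.60 in TKO (SE 0.564, edgeR adjusted p = 0.696) and −0.06 in Zmat3-/- mice (SE 0.471, edgeR adjusted p = 0.953). Neither passed the test, and the 95% intervals ran from −0.71 to 1.90 and from −1.14 to 1.01, so neither fixed a direction. With 1 mouse left out, the TKO value ran from 0.33 without wt mouse 1 to 1.01 without wt mouse 3, with 0.34 without TKO mouse 2.

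The direction for Malat1 was set by the wt pair used. Against wt 1 and 2 its log2FC was 1.85 in TKO (SE 0.291) and 1.18 in Zmat3-/- mice (SE 0.143). Against wt 3 and 4 it was −0.06 (SE 0.282) and −0.73 (SE 0.132). With the replicate number as a block it was 1.17 in TKO (adjusted p = 0.374) and 0.23 in Zmat3-/- mice (adjusted p = 0.809), both from edgeR. Only 4.59% of 12957 genes differed between the wt pairs by as much as Malat1. In TKO against Zmat3-/- mice, where no wt mouse enters, its log2FC was 0.66 (SE 0.222, 95% interval 0.16 to 1.15, edgeR adjusted p = 0.964), with overlapping ranges. With 1 mouse left out it ran from 0.40 without TKO mouse 2 to 0.92 without TKO mouse 3.

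**Figure D2:**
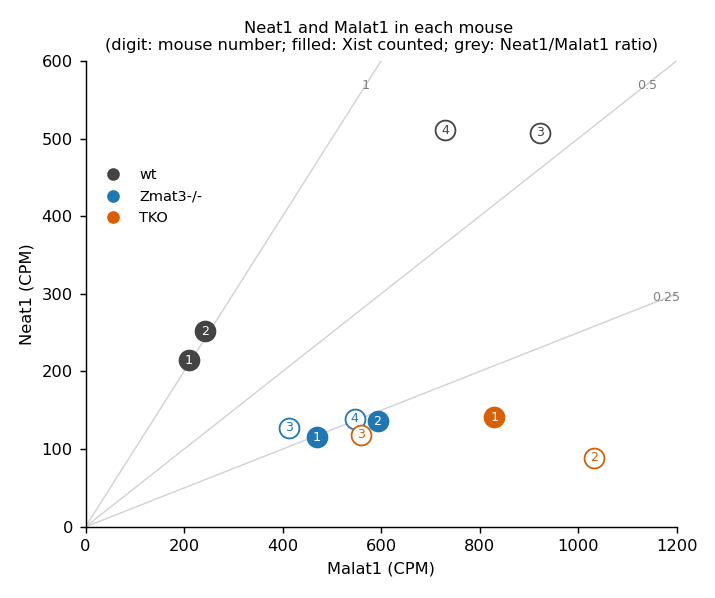
Neat1 CPM (vertical axis) against Malat1 CPM (horizontal axis), 1 point per mouse with its number. Grey lines mark Neat1 to Malat1 ratios of 1, 0.5 and 0.25. The wt mice lie on or above the 0.5 line, and the mutant mice near or below the 0.25 line, from 0.0858 to 0.309.

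The ratio of Neat1 to Malat1 counts within a library, which needs no scaling between libraries, kept the wt mice apart from the mutants. It was 1.02 and 1.04 in wt mice 1 and 2 and 0.550 and 0.700 in wt mice 3 and 4. It was 0.246, 0.230, 0.309 and 0.254 in Zmat3-/- mice and 0.170, 0.0858 and 0.212 in TKO mice. The genotypes did not overlap in this ratio, though it rests on the same Neat1 difference that chose the gene. Across the 11 mice the log2 CPM of the RNAs had a Pearson r of −0.01, and among the 7 mutants −0.46. Both are descriptions over mice of different genotypes.

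Per kilobase of its longest transcript, Malat1 had 75.3 CPM in wt and 72.4 CPM in Zmat3-/- mice, and 116 CPM in TKO mice. Neat1 had 17.9 CPM per kb in wt, 6.24 in Zmat3-/- and 5.58 in TKO mice at the length of the long transcript, but 124, 43.1 and 38.6 at that of the short one. Which RNA was more abundant per molecule in wt therefore depended on the Neat1 transcript assumed. Nono (212) and Sfpq (156) were the highest of the protein genes in wt, followed by Rbm14 (20.6) and Pspc1 (9.84), in mean CPM per kb.

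Sfpq, a splicing and transcription factor that is needed for the long Neat1 transcript, had 527, 484, 573 and 582 CPM in the wt mice. It had 610, 681, 639 and 600 CPM in Zmat3-/- and 651, 693 and 839 CPM in TKO mice. All 7 mutant mice were above all wt mice, by a small margin. Groups in which every mutant was above every wt mouse made up 6.95% of genes in the comparison of TKO with wt and 7.31% in that of Zmat3-/- with wt. The log2FC was 0.38 in TKO (SE 0.151, 95% interval 0.028 to 0.73, edgeR adjusted p = 0.453) and 0.23 in Zmat3-/- mice (SE 0.115, edgeR adjusted p = 0.376), and neither passed the test. In TKO mice the log2FC was 0.27 against wt 3 and 4 and 0.50 against wt 1 and 2, and in Zmat3-/- mice 0.11 and 0.34.

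Nono, the most common partner of SFPQ, had 607, 587, 506 and 468 CPM in wt, 571, 593, 521 and 561 CPM in Zmat3-/- and 556, 563 and 665 CPM in TKO mice. The 3 ranges overlapped. Its log2FC was 0.09 in TKO against wt (SE 0.149, 95% interval −0.26 to 0.43, edgeR adjusted p = 0.816) and 0.06 in Zmat3-/- against wt (SE 0.116, 95% interval −0.21 to 0.32, edgeR adjusted p = 0.819). With 1 mouse left out these ran from 0.034 to 0.145 and from 0.0025 to 0.11. Against wt 3 and 4 the log2FC was 0.22 in TKO and 0.19 in Zmat3-/- mice, and against wt 1 and 2 it was −0.03 and −0.07. Changes of more than 0.43 on the log2 scale in either direction were outside both intervals.

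Pspc1, the scarcest of these proteins' transcripts, had 38.7, 38.1, 43.5 and 41.6 CPM in wt and 41.7, 44.4, 42.4 and 41.0 CPM in Zmat3-/- mice. TKO mice had 43.8, 28.3 and 45.5 CPM, with mouse 2, the shallowest library, alone below the rest. The log2FC against wt was −0.10 in TKO (SE 0.165, edgeR adjusted p = 0.820) and 0.06 without TKO mouse 2. In Zmat3-/- mice it was 0.07 (SE 0.0883, edgeR adjusted p = 0.703). Against wt 3 and 4 it was −0.18 in TKO and −0.03 in Zmat3-/- mice, and against wt 1 and 2 it was 0.01 and 0.16.

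Rbm14, a coactivator that bridges paraspeckle units, had 73.6, 70.0, 72.2 and 73.8 CPM in wt and 62.0, 62.8, 56.3 and 49.98 CPM in Zmat3-/- mice. TKO mice had 59.3, 66.3 and 84.0 CPM. Every Zmat3-/- mouse was below every wt mouse, as for 6.75% of all genes tested, while the TKO mice lay on both sides of wt. The log2FC in Zmat3-/- mice was −0.32 (SE 0.0957, 95% interval −0.54 to −0.10, edgeR adjusted p = 0.157), which did not pass. DESeq2 gave an adjusted p = 0.0281 at a log2FC of −0.32, where 8.04% of all genes had an adjusted p under 0.05. The value was close to this against either wt pair, at −0.35 against wt 3 and 4 and −0.30 against wt 1 and 2. In TKO mice it was −0.10 (SE 0.119, edgeR adjusted p = 0.746), or −0.13 and −0.07 against these wt pairs, and in TKO against Zmat3-/- mice 0.22 (SE 0.0973, edgeR adjusted p = 0.983).

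**Figure D3:**
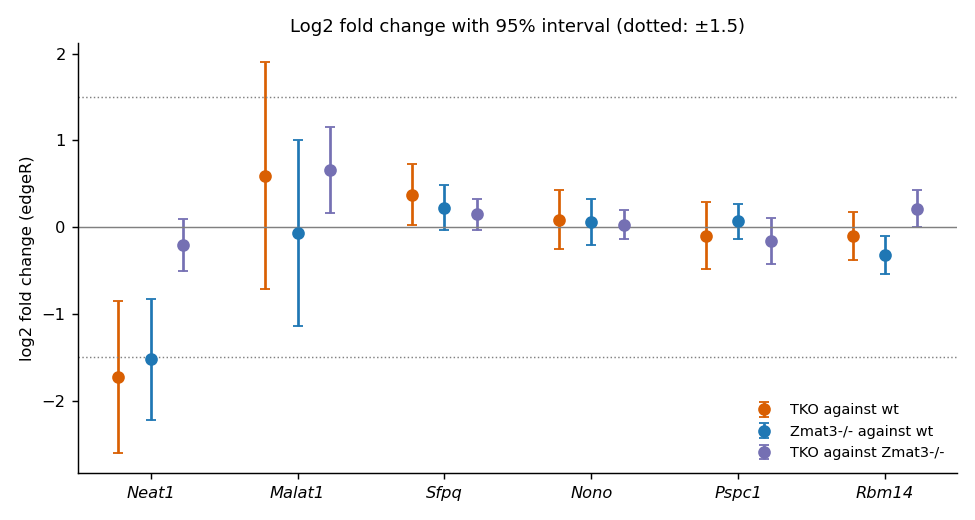
Log2FC (vertical axis) of each gene in 3 comparisons, with 95% intervals from edgeR. Dotted lines mark the fold threshold of 1.5 on the log2 scale. Neat1 lies near −1.5 or below it against wt (−1.73 and −1.52) and near 0 between the mutants (−0.20), and the 4 protein genes stay between −0.32 and 0.38.

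None of the 6 genes (0) was called differentially expressed, at an edgeR adjusted p under 0.05 and an absolute log2FC above 1.5, in any comparison. Over all tested genes 0.241% were called in TKO against wt, 0.319% in Zmat3-/- against wt and 0.122% in TKO against Zmat3-/- mice. At an unadjusted p under 0.05 and with Neat1 left out, since it was chosen by these contrasts, the 5 others held 1 gene (Sfpq) in TKO against wt and 1 (Rbm14) in Zmat3-/- against wt, beside 10.3% and 16.1% of all genes. In TKO against Zmat3-/- mice 1 of the 6 (Malat1) had such a p, beside 4.5% of all genes. With DESeq2, with all 3 genotypes in 1 edgeR fit, with 1 surrogate variable or without wt mice 1 and 2, Neat1 alone was past both thresholds in each comparison with wt, and without wt mouse 1 in Zmat3-/- against wt. Since Neat1 was chosen for its difference from wt, these are descriptions and no test. Of all genes, 0.513 to 1.81% were called in TKO and 0.541 to 3.13% in Zmat3-/- against wt over the first 4 of these settings. Without wt mice 3 and 4 the 1 gene called in TKO against wt was Malat1, and 0 were called in Zmat3-/- against wt, beside 5.03% and 5.16% of all genes in these fits. The median log2FC of the 6 genes was −0.0035, −0.0030 and 0.089 in the 3 comparisons, beside −0.037, −0.026 and −0.0083 over all genes.

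The summed CPM of 14 immediate-early genes, which respond within minutes to a stimulus, was higher in every mutant mouse than in every wt mouse. It was 827 to 1342 CPM in wt, 1702 to 2084 CPM in Zmat3-/- and 1709 to 2115 CPM in TKO mice. Members of the list did not all go 1 way. Fos had 2.78 to 40.2 CPM in wt and 124 to 219 CPM in mutant mice, and Junb 31.1 to 217 CPM and 482 to 619 CPM. Btg2, at 444 to 523 CPM in wt and 339.98 to 373 CPM in mutant mice, and Egr2, at 18.5 to 24.6 CPM and 12.1 to 15.8 CPM, were lower in every mutant mouse, and Egr1 overlapped, at 83.8 to 102.8 CPM and 67.7 to 86.4 CPM. Mitochondrial genes took 4.25 to 6.31% of the counts of wt mice, 6.54 to 14.6% of those of Zmat3-/- mice and 3.86 to 9.29% of those of TKO mice. Summed stroma (201.6 to 324 CPM), myeloid (191 to 461 CPM) and erythroid (880 to 8561 CPM) markers overlapped between genotypes. The part of these in the Neat1 values was not tested.

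The 34 other paraspeckle protein genes, all tested, gave a median log2FC of 0.019 in TKO against wt, with 1 higher and 3 lower at an unadjusted p under 0.05, 0 at an edgeR adjusted p and 1 (Hnrnph3) at a DESeq2 adjusted p under 0.05. In Zmat3-/- against wt the median was −0.027, with 1 higher and 4 lower at an unadjusted p, and 1 gene, Hnrnph3, passed an edgeR adjusted p under 0.05 and 2, Hnrnph3 and Rbm7, that of DESeq2. Over all genes 0.294% and 0.763% passed that edgeR threshold at any fold in these comparisons, and 2.87% and 8.04% passed it with DESeq2. At an unadjusted p under 0.05 the shares of all genes were 10.3% and 16.1%. Hnrnph3, whose protein is a splicing factor found in paraspeckles, had 81.7, 73.6, 72.8 and 74.6 CPM in wt, 52.0, 56.3, 47.5 and 48.2 CPM in Zmat3-/- and 55.8, 54.9 and 52.1 CPM in TKO mice. It fell by 0.56 on the log2 scale in Zmat3-/- mice (SE 0.0879, edgeR adjusted p = 0.0309), below the fold threshold, and its log2FC in TKO mice was −0.52 (SE 0.126, edgeR adjusted p = 0.255). The Zmat3-/- call was lost with the replicate number as a block (adjusted p = 0.180), with no filter on low counts (adjusted p = 0.0898) and without any 1 of the mice other than wt 1. The log2FC itself was −0.57 with the block and with no filter, and −0.61 to −0.53 with 1 mouse left out. Cirbp, a cold-inducible RNA-binding protein gene, had a log2FC of −0.87 in TKO against wt (edgeR adjusted p = 0.426), which was −1.15 against wt 1 and 2 and −0.50 against wt 3 and 4. Rbm7, a gene of nuclear RNA decay, had 0.28 in Zmat3-/- against wt (edgeR adjusted p = 0.148, DESeq2 adjusted p = 0.00422). In TKO against Zmat3-/- mice the smallest p were those of Rbm3 (log2FC −0.23) and Ewsr1 (log2FC −0.18), both at an edgeR adjusted p of 0.983.

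Of 26 other nuclear or regulatory long non-coding RNAs, 21 were tested against wt. In TKO mice 6 were higher and 15 lower (median log2FC −0.33), and in Zmat3-/- mice 6 were higher and 15 lower (median −0.18), beside the all-gene medians above, and 0 passed an adjusted p under 0.05 in edgeR. Of all tested lincRNAs 68.5% and 68.4% were lower in these comparisons, and of protein-coding genes 53.5% and 52.3%. At an unadjusted p under 0.05, 4 listed RNAs were lower and 0 higher in TKO, and 5 lower and 1 higher in Zmat3-/- mice. Over all genes 10.3% and 16.1% had such a p. DESeq2 gave 1 (Mir17hg) and 3 (Mir17hg, Dleu2 and Jpx) at an adjusted p under 0.05, all lower, beside 2.87% and 8.04% of all genes. Mir17hg, the host of the miR-17 to miR-92a cluster, had log2FC of −0.88 (edgeR adjusted p = 0.310) and −0.82 (edgeR adjusted p = 0.110). Dleu2, host of miR-15a and miR-16, had −0.83 (edgeR adjusted p = 0.388) and −0.84 (edgeR adjusted p = 0.110). Both sizes depended on the wt pair. Against wt 3 and 4 alone Mir17hg had −1.199 in TKO and −1.14 in Zmat3-/- mice and Dleu2 −1.17 and −1.18, and against wt 1 and 2 alone they had −0.48 and −0.43, and −0.39 and −0.41. Across the annotation, lincRNAs had a median log2FC of −0.29 (267 tested) and −0.24 (282 tested) in TKO and Zmat3-/- against wt, and protein-coding genes −0.029 and −0.018. A lower log2FC than Neat1's was found for 10 of the 267 and 15 of the 282 lincRNAs, a position that the choice of Neat1 used. Between the mutants 20 of the listed RNAs were tested, with Zfas1 (log2FC −0.19) and Rn7sk (log2FC −0.60) at the smallest p, both at an edgeR adjusted p of 0.983. Without TKO mouse 3 these values were −0.07 and −0.23, and without TKO mouse 1 they were −0.27 and −1.10.

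Nuclear speckle proteins, which share a compartment with MALAT1, gave medians of −0.041 and −0.065 against wt over 17 genes, and 0 passed an adjusted p under 0.05 in edgeR, with 1 and 3 lower at an unadjusted p and 1 (Rnps1) and 2 (Pnn and Srsf5) with DESeq2. Their smallest p were those of Rnps1 (log2FC −1.22, edgeR adjusted p = 0.138) and Srsf2 (log2FC −0.30) in TKO, and of Pnn (log2FC −0.26) and Srsf5 (log2FC −0.28) in Zmat3-/- mice. Over all genes 10.3% and 16.1% had an unadjusted p under 0.05 against wt, and 2.87% and 8.04% a DESeq2 adjusted p under 0.05. Rnps1, whose protein belongs to the exon junction complex, fell by 0.92 on the log2 scale in TKO against Zmat3-/- mice (SE 0.0893, edgeR adjusted p = 0.000843), where 0.221% of genes passed an adjusted p under 0.05. It had 124, 126, 112 and 103 CPM in Zmat3-/- mice and 58.7, 56.2 and 77.2 CPM in TKO mice. With all 3 genotypes in 1 fit the adjusted p was 0.492 at a log2FC of −0.91, and with 1 mouse left out the log2FC was −0.98 to −0.86, at an edgeR adjusted p of at most 0.0133. Srsf5 had the next smallest p between the mutants (log2FC 0.07, edgeR adjusted p = 0.983). Of the factors known to act on Neat1, Trp53 had a log2FC of −0.17 and −0.23 in TKO and Zmat3-/- against wt, Hif1a 0.50 and 0.40, and Hsf1 −0.08 and −0.22, with edgeR adjusted p from 0.306 to 0.815. Their sizes depended on the wt pair. In TKO mice Hif1a had 0.96 against wt 1 and 2 (edgeR adjusted p = 0.00154, where 43.6% of all genes passed 0.05) and 0.15 against wt 3 and 4 (adjusted p = 0.289). Trp53 in TKO had −0.28 and −0.06 against these pairs and −0.09 without TKO mouse 1. Between the mutants Hsf1 had 0.13 and Hif1a 0.09, both at an edgeR adjusted p of 0.983. With 1 mouse left out these ran from 0.070 to 0.21 and from 0.072 to 0.145.

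**Figure D4:**
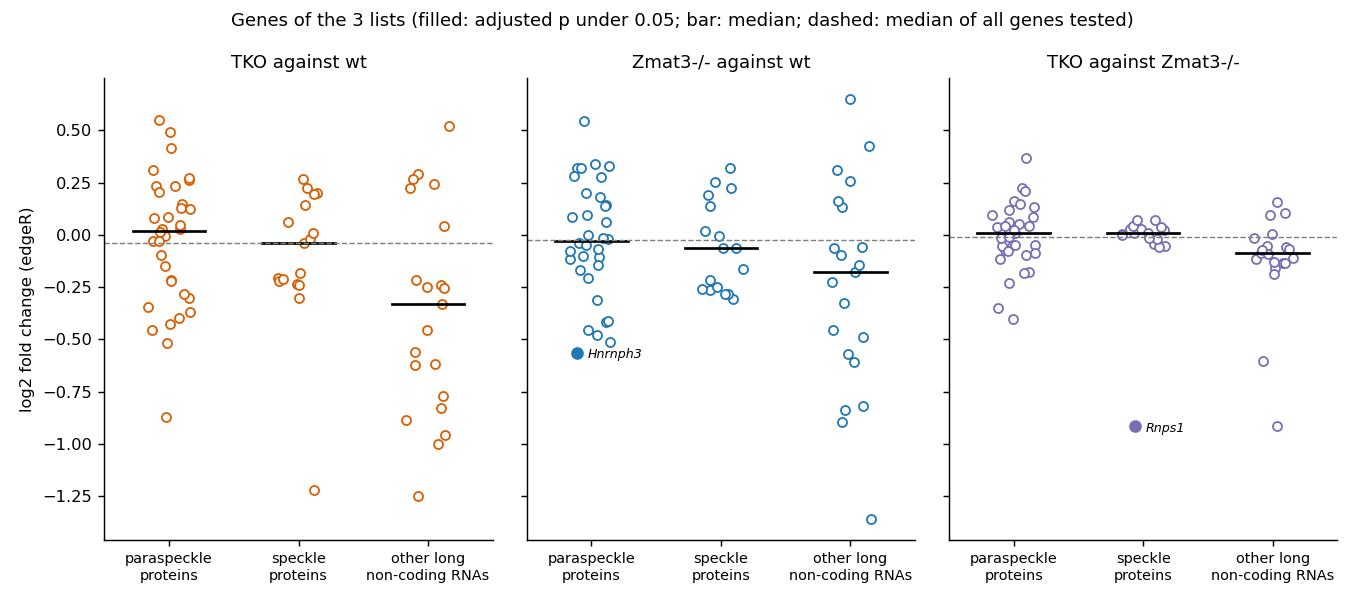
Log2FC (vertical axis) of genes in 3 lists, in 3 comparisons. Each point is a gene, filled at an edgeR adjusted p under 0.05, bars are list medians and the dashed line is the median of all tested genes. Only Hnrnph3 in Zmat3-/- against wt (−0.56) and Rnps1 in TKO against Zmat3-/- (−0.92) are filled.

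Of the protein-coding entries within 200 kb of Neat1 or Malat1, 19 were tested against wt, with log2FC from −0.75 to 0.35 in TKO and from −0.86 to 0.40 in Zmat3-/- mice. None (0) passed an adjusted p under 0.05 in edgeR, 1 and 3 had an unadjusted p under 0.05, and 1 in each, Kat5, passed an adjusted p with DESeq2. Over all genes 10.3% and 16.1% had such an unadjusted p, and 2.87% and 8.04% such a DESeq2 adjusted p. Kat5, an acetyltransferase gene 235.2 kb from the start of Neat1, had log2FC of −0.53 (SE 0.146) and −0.43 (SE 0.0982). Neat1's log2FC of −1.73 and −1.52 was below that of each neighbour, which is a description, since Neat1 was chosen for a low value. Between the mutants 18 were tested, from −0.41 to 0.26, and 0 had an edgeR unadjusted p or a DESeq2 adjusted p under 0.05.

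**Figure D5:**
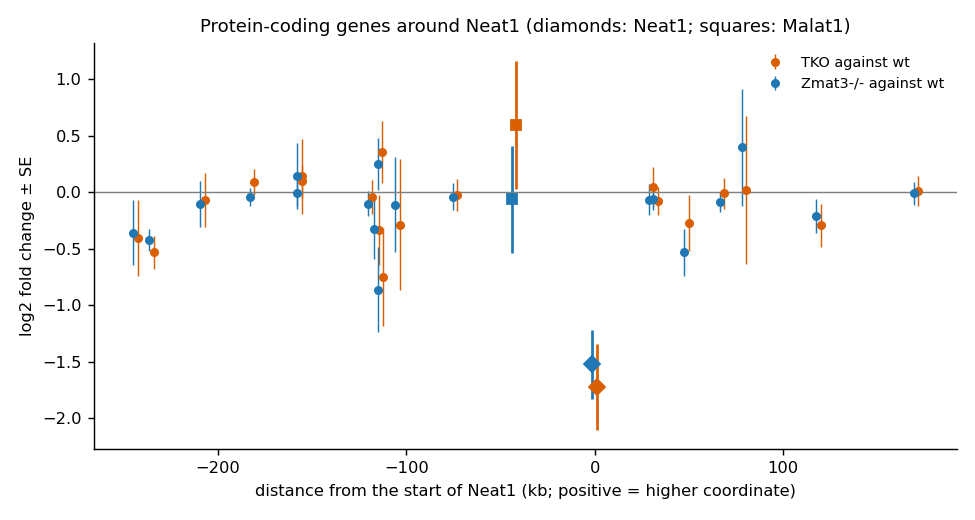
Log2FC with SE (vertical axis) of tested protein-coding genes against distance in kb from the start of Neat1 (horizontal axis). Diamonds are Neat1, at −1.73 and −1.52, and squares Malat1, at 0.60 and −0.06. The circles of the neighbours lie between −0.86 and 0.40.

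Several members overlap other annotated genes, and without strand the reads of a gene and its antisense partner cannot be told apart. Gm12940, a non-coding gene on the strand of Sfpq, shares 216 exon bases with it and 3.92% of the 31-base words of Sfpq. It went the other way from Sfpq. It had 61.4, 52.3, 35.2 and 40.2 CPM in wt, 23.3, 31.6, 23.6 and 21.1 CPM in Zmat3-/- and 28.9, 34.0 and 26.0 CPM in TKO mice, with every mutant below every wt mouse. Of all genes, 5.16% had every TKO mouse below every wt mouse and 6.75% every Zmat3-/- mouse. For each 100 Sfpq CPM there were 6.14 to 11.7 CPM of Gm12940 in wt and 3.097 to 4.91 in mutant mice. The log2FC of Gm12940 was −0.70 in TKO (SE 0.232, edgeR adjusted p = 0.405) and −0.92 in Zmat3-/- mice (SE 0.193, edgeR adjusted p = 0.0763). Against wt 1 and 2 alone these were −0.96 and −1.18, with an edgeR adjusted p = 0.00355 and 0.000214, where 43.6% and 56.1% of all genes passed 0.05. Against wt 3 and 4 alone they were −0.40 and −0.62, with an edgeR adjusted p = 0.184 and 0.00853, where 8.15% and 33.0% passed. How the counting split the shared reads was not tested.

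Rbm14 shares 16.5% of its words with Gm21992, a readthrough gene at 5.89 to 15.6 CPM. The log2FC of Gm21992 was −0.54 in Zmat3-/- against wt (SE 0.212, edgeR adjusted p = 0.261) and −0.31 in TKO against wt (edgeR adjusted p = 0.702). Single mice set the size of both, which were −0.31 and −0.07 without wt mouse 4, and the TKO value was −0.05 without TKO mouse 1. Gm21844, antisense to Rbm14 and sharing 8.12% of its words, had at most 0.222 CPM. Inside Neat1, Gm27533 and Gm27505 had 0 counts in every mouse and Gm28006 at most 0.231 CPM, and inside Malat1, Gm27694 had 0 counts in every mouse. Gm37376, antisense to Malat1, had at most 1.79 CPM. Nono shares 16.8% and 11.5% of its words with Gm8806 and Gm5171, which had at most 0.199 and 0.187 CPM. The lowest Malat1 level in any mouse was 210 CPM and the lowest Nono level 468 CPM.

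The genes whose log2 CPM followed Neat1 most closely over the 11 mice, among 12957 tested genes, were Mir17hg (r = 0.988), 2900076A07Rik (r = 0.974), Apbb3 (r = 0.974), Dleu2 (r = 0.974) and Gm37584 (r = 0.973). Mir17hg had 24.1, 26.1, 39.0 and 41.3 CPM in wt, 16.7, 20.7, 17.5 and 19.1 CPM in Zmat3-/- and 20.2, 16.8 and 17.6 CPM in TKO mice. It had the same low pair and high pair among wt mice as Neat1. Among the 7 mutants alone, the r of these 5 genes with Neat1 was 0.272 to 0.784. Of the 50 genes most like Neat1, 54.0% were not protein-coding, beside 10.3% of all genes.

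Each of the others followed its own set. Malat1 was most like Cask (r = 0.923), Cxadr (r = 0.918) and Gm37274 (r = 0.905). Sfpq was most like Hsf2 (r = 0.975), Nf2 (r = 0.975) and Csnk1a1 (r = 0.966), and Nono like Sdha (r = 0.985), Eif3c (r = 0.959) and Pcbp2 (r = 0.958). Pspc1 was most like Stk11ip (r = 0.965), Cep83os (r = 0.932) and Gm4459 (r = 0.927), and Rbm14 like Sall2 (r = 0.942), Cnot3 (r = 0.920) and Rprd1b (r = 0.915). Among the members themselves, Neat1 had r of −0.57 with Sfpq, −0.60 with Nono, 0.26 with Pspc1 and 0.39 with Rbm14 over the 11 mice. Among the 7 mutants alone these were −0.28, −0.09, 0.85 and −0.43, so the sign for Rbm14 turned. Within the 7 mutants, Sfpq, Nono and Rbm14 had r of 0.813 to 0.927 with each other, and over the 11 mice 0.104 to 0.354. TKO mouse 3 had the highest level of each of these genes among the mutants (839, 665 and 84.0 CPM). TKO mouse 2 had the lowest Neat1 and Pspc1 levels (88.6 and 28.3 CPM). How far single mice set these r was not tested. These r are descriptions, since genotype and library depth differed among the mice and are common to all genes of a mouse.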

How the data were processed

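The authors quantified reads by pseudo-alignment (Salmon, run by nf-core/rnaseq, genome GRCm38.p6, GENCODE vM25, per the paper and the submitters' processing notes) and deposited estimated counts per gene, 1 column per mouse, without normalization. The values are whole numbers, and how they were rounded is not given in the sources used here. The submitters' notes name DESeq2 1.40.0. All 11 columns were mapped to mice by their names, and 0 columns were of other series. Of 54418 genes, 54166 matched GENCODE M21 (names, positions, sequences) and 252 did not.

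Each comparison used edgeR 4.0.16 with limma 3.58.1 under R 4.3.3, with TMM, the quasi-likelihood F-test, two-sided, with Benjamini-Hochberg adjustment over all tested genes. A gene was tested if its counts, brought to the depth of the smallest library, reached 20 in a number of mice equal to the smaller group. Following the paper, genes of chromosome Y, rRNA, Xist and immunoglobulin non-coding genes did not enter. CPM are TMM-scaled, and log2 CPM used a prior count of 2. Each mouse is 1 sample, and at 3 counts the libraries could show 0.0403 to 0.167 CPM, which covers counting error only.

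The members and lists were chosen with earlier results of these data known. Text names all members, the genes of each list with an adjusted p under 0.05 or the 2 smallest p per comparison, the targeted genes, overlapping genes and copies, neighbours within 200 kb, and the genes most correlated with each member (5 for Neat1, 3 for the others). Only the neighbours that carried a result were named. Alternatives were DESeq2 1.42.0, RLE size factors, no filter, those classes kept, all genotypes in 1 fit, 1 surrogate variable (sva 3.50.0), the Xist level as a covariate in place of sex, which the labels do not give, the replicate number as a block, and each mouse left out. Fits without a wt pair and the test by Xist were added after the data were seen. The labels give replicate numbers but do not say that mice with equal numbers belong together. For Zmat3-/- with wt, the deviations of mice with equal numbers correlated at 0.128 to 0.337 in all 4 pairs. For TKO with wt (0.0734 to 0.405) and TKO with Zmat3-/- mice (0.0102 to 0.195) not every pair passed 0.1. These values cannot show pairing, because mice with unequal numbers were not compared. In wt and Zmat3-/- alike, mice 1 and 2 also had Xist counted and mice 3 and 4 a trace. Tested on simulated data in which 200 genes had a log2 change of 3, the fits recovered 95.5% (TKO against wt, 13260 genes), 96.5% (Zmat3-/- against wt, 13494 genes) and 100% (TKO against Zmat3-/-, 13124 genes). That change is larger than any member's, and the simulated wt mice were not split into pairs. Recovery of changes of the members' size was not tested.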

Additional observations from a re-analysis of the deposited data

Results flagged for a closer look

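The Zmat3-/- against wt log2FC of Neat1 and Malat1 was compared between mice with Xist counted (numbers 1 and 2 of each genotype) and mice with a trace of Xist (numbers 3 and 4), with an interaction term in edgeR over 2 mice in each of 4 cells. This test was added after the split of the wt mice in both RNAs had been seen. For Neat1 the log2FC was −0.87 with Xist counted and −1.95 with a trace, a difference of 1.08 (SE 0.140), given as a description because the gene was chosen for its difference from wt. For Malat1 it was 1.26 and −0.80, a difference of 2.05 (SE 0.230), also a description, since its split had prompted the test. An adjusted p under 0.05 was reached by 44.2% of 13494 genes, so a difference of this kind is not particular to these RNAs. For Sfpq, Nono, Pspc1 and Rbm14 the adjusted p was 0.0629 to 0.307. The Xist level, the replicate number and whatever else set the wt pairs apart cannot be told apart here. No wt or Zmat3-/- mouse stood far from the other 3 of its genotype for any member, over 12 groups of 4 mice, where chance alone gives about 1 in 20. TKO mice were not screened, and a split into pairs, as for Neat1 and Malat1 in wt, cannot be flagged in this way.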

How the results depend on the processing

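Over the alternatives, the median log2FC of all genes stayed between −0.037 and 0.018 in every scaling and fit with all mice, and reached −0.043 when single mice were left out. Neat1 kept its direction against wt in all of them, from −1.92 to −1.52 in TKO and from −1.72 to −1.32 in Zmat3-/- mice when single mice were left out, and it moved most without wt mice 3 and 4 (−1.02 and −0.83). Malat1 in TKO against wt was −0.063 without wt mice 1 and 2 and was called at 1.85 without wt mice 3 and 4. Malat1 in Zmat3-/- against wt turned from −0.064 to 0.23 with the replicate block, 0.062 with 1 surrogate variable, 0.18 with the Xist level and 1.18 without wt mice 3 and 4, and ran from −0.33 to 0.36 when single mice were left out, turning positive without wt mouse 3, wt mouse 4 or Zmat3-/- mouse 3. Small values changed sign without wt mice 3 and 4 (Nono −0.030 in TKO and −0.074 in Zmat3-/-, Pspc1 0.0073 in TKO), without wt mice 1 and 2 (Pspc1 −0.025 in Zmat3-/-) and when single mice were left out (in TKO, Pspc1 −0.19 to 0.060, turning without TKO mouse 2, and Rbm14 −0.17 to 0.0086, turning without TKO mouse 1). The number of members called, 0, became 1 in TKO against wt with DESeq2, all genotypes in 1 fit, 1 surrogate variable and without either wt pair. In Zmat3-/- against wt it became 1 under the same settings except without wt mice 3 and 4, and was 0 to 1 when single mice were left out (1 without wt mouse 1). The member was Neat1, chosen for this difference, so that these calls are no test, except without wt mice 3 and 4, where it was Malat1. All genes called in TKO against wt numbered 32, and 103 with DESeq2, 51 with no filter, 68 in 1 fit, 176 with 1 surrogate variable, 244 and 672 without wt mice 1 and 2 or 3 and 4, and 15 to 35 without single mice (15, 15 and 17 without TKO mice 1, 2 and 3). In Zmat3-/- against wt they numbered 43, and 123 with DESeq2, 73 in 1 fit, 215 with 1 surrogate variable, 441 and 733 without the wt pairs, and 12 to 47 without single mice (25 and 20 without wt mice 3 and 4, 12 to 14 without any Zmat3-/- mouse). In TKO against Zmat3-/- they numbered 16, and 45 with no filter. The cause of these moves was not tested. Sfpq in TKO against wt had an adjusted p of 0.0168 with 1 surrogate variable, where 17.9% of all genes passed 0.05, below the fold threshold.

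With the replicate block, pairing mice by number, all genes called were 16 in TKO against wt, 8 in Zmat3-/- against wt and 16 in TKO against Zmat3-/- mice. The block left Neat1 at −1.43 in TKO against wt, and no member was called with it.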
